A study of Mus musculus with 188 samples.

Results

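The alpha and beta globin clusters code for the chains of haemoglobin, and their place in the replication program was described here in single mouse embryonic stem cells (mESCs), which do not make red blood cells. Members were the 50 kb bins that lie within 250 kb of either cluster. The alpha cluster was taken from Hba-x to Hba-a2 and the beta cluster from Hbb-bt to Hbb-y. The rule gave 11 bins around the alpha genes and 12 around the beta genes, 23 of 52685 bins in all. Use of a bin required a replication state in every cell, and a score in 50% or more of the haploid and of the diploid cells, which 22 member bins met, of 45112 autosomal bins used. The bin that failed begins at base 32300001 of chromosome 11, directly after the alpha genes. It had a state in every cell and a score in 0 of 138 cells.

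Values came from 75 haploid cells of the line H129-2 (strain musculus 129) and 63 diploid cells of the hybrid line F121-9, which carries a 129 and a Castaneus homolog of each chromosome. All were S-phase cells sorted by DNA content from untreated, feeder-free cultures in 2i medium with LIF. DNA that has been copied gives more reads than DNA still to be copied in that cell. Each bin therefore had a smoothed copy number score, relative within the cell, and a binarized state, replicated or unreplicated. No culture is named for any cell, so each line counts as 1 sample, and the lines are set side by side without a test. SD is the spread over cells.

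A haemoglobin molecule holds alpha-like and beta-like chains, and the genes of both families are arranged in the order of their use in development. Both clusters are switched on by distant enhancers in red cell precursors and are silent in stem cells. In the alpha cluster Hba-x is the embryonic gene, and Hba-a1 and Hba-a2 are the genes of fetal and adult life. In the beta cluster Hbb-y is an embryonic gene, while Hbb-bt and Hbb-bs are the adult genes. The beta globin domain is a classical example of replication timing that differs between cell types, late in most of them and early in erythroid cells.

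In mm10 the alpha cluster spans bases 32276400 to 32297298 of chromosome 11. Hba-x (32276400 to 32278116), Hba-a1 (32283511 to 32284465) and Hba-a2 (32296489 to 32297298) lie on the plus strand and share a single bin, which begins at 32250001. The beta cluster spans bases 103812524 to 103853216 of chromosome 7, with its genes on the minus strand. Hbb-bt (103812524 to 103813996) and Hbb-bs (103826534 to 103828096) share the bin that begins at 103800001. Hbb-y (103851749 to 103853216) lies in the next bin, which begins at 103850001. Genes that share a bin have the same values and cannot be told apart. The adult genes of each cluster are also near copies of each other. Identity over the gene bodies was 81.7% for Hba-a1 and Hba-a2 and 89.5% for Hbb-bt and Hbb-bs. It was 40.3% for Hba-a1 and Hba-x and 53.9% for Hbb-bs and Hbb-y. Gaps of the alignment count in these values, so unequal gene lengths lower them. Hba-a1 and Hbb-bs, of different clusters, had 43.6%.

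The stretch directly upstream is shown for an adult alpha and an embryonic beta gene, the members whose upstream stretch lies almost wholly outside annotated transcripts. Both are from RefSeq on GRCm38 (mm10), read along the strand of the gene, 5′ to 3′, without the last bases that the GENCODE annotation places inside the gene. Capitals mark CCAAT and TATAA, the letters of the CCAAT box and the TATA box.
Hba-a2, chr11:32296372-32296488, plus strand: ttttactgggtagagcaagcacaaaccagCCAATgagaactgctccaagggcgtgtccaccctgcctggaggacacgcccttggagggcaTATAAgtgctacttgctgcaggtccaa
Hbb-y, chr7:103853217-103853327, minus strand: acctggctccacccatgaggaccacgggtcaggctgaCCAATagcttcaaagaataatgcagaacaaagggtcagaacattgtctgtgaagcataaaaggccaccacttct
Over the 120 bases before the RefSeq start, CCAAT was found in 5 of the 6 members (not in Hba-x) and in 21.3% of all 32851 promoters of the RefSeq table, counting both strands. TATAA was found in 5 of 6 (not in Hbb-y) and in 11.8% of all promoters. CACCC, the letters of the box that Klf1 reads in the beta gene, was found in 6 of 6 and in 31.7%. The 120 bases of Hba-a1 aligned with 117 identical positions to those of Hba-a2. The members thus share promoter letters, but near copies such as these are not independent examples beside all promoters. Whether the letters bear on replication timing was not tested.

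The alpha genes were early and the beta genes late in both lines. Scheduled time is the rank of a bin in the mean score profile, placed on an S phase of 10 h. It was 2.42 h for the alpha genes and 7.60 h for the beta genes (7.73 h for Hbb-bt and Hbb-bs and 7.47 h for Hbb-y), a difference of -5.18 h for alpha minus beta. In the profile of the haploid cells alone, the alpha genes were at 1.81 h and the beta genes at 7.34 h. In that of the diploid cells the alpha genes were at 2.92 h and the beta genes at 8.01 h. Both clusters thus ranked earlier in the haploid profile, and their order was the same. The SD of a cluster's rank across the profiles of single cells was 1.77 h for alpha and 1.51 h for beta. The shifts between the lines were smaller than that spread of single cells, and the gap between the clusters was larger. The spread does not measure the uncertainty of a mean profile, so it does not decide whether the lines differ.

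**Figure D1:**
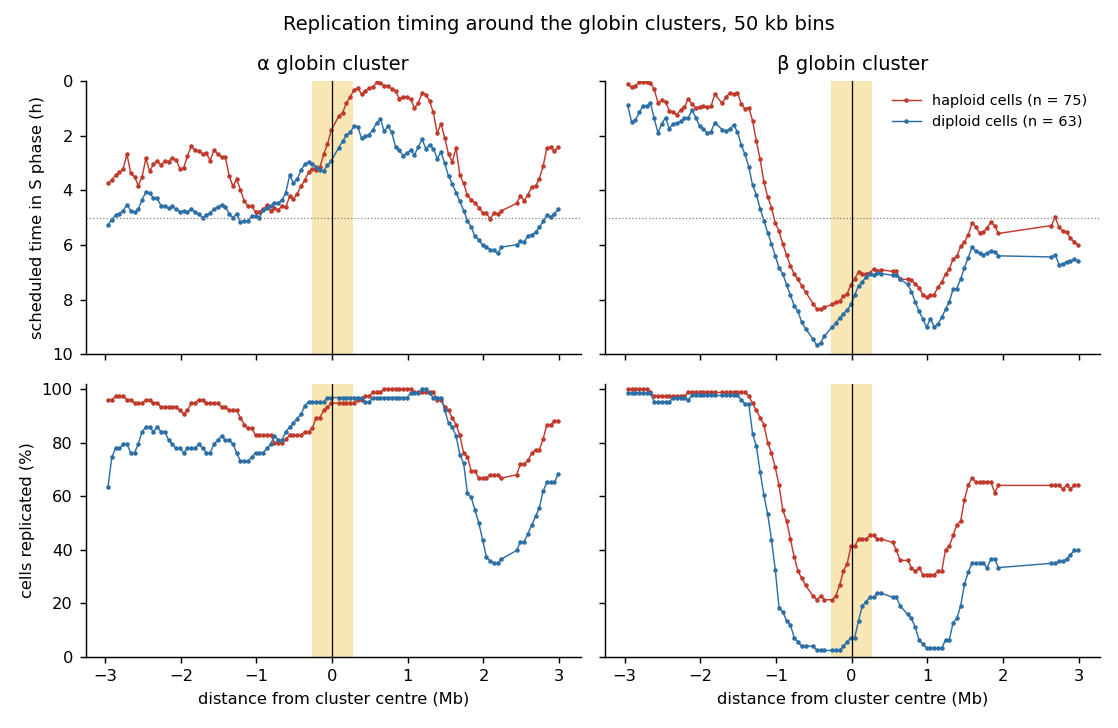
Scheduled time (top, hours in S phase, early at the top) and percentage of cells replicated (bottom) in each 50 kb bin within 3 Mb of the cluster centres, for 75 haploid and 63 diploid cells. The shaded bands are the member windows and the dotted line is at 5 h. The alpha genes lie on a slope toward an early peak on their right, and the beta genes lie inside a late valley.

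In the window of the alpha cluster the scheduled time ran from 3.24 h on the left to 1.10 h in the last bin on the right. The genes therefore sit on a slope. The next early peak was at 0.380 h, in the bin that begins at 32900001. Each step along the window is small, and the authors' median filter spans more bins than the window holds, so neighbouring bins are not independent. In single cells, the last bin of the window scored above the first in 59 of 75 haploid cells, with a mean difference of 0.315 ± 0.497 (SD). It did so in 42 of 63 diploid cells, with 0.170 ± 0.332. The spread over cells was larger than the mean step in both lines. It describes single cells and does not measure the uncertainty of the mean step.

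In the window of the beta cluster the scheduled time ran from 8.49 h on the left to 6.97 h on the right. The lowest point of the valley was the bin that begins at 103350001, at 8.88 h, left of the window. To the right the valley had a second low bin at 8.33 h, which begins at 104800001, so the right side of the window is a local rise within late DNA. The last bin of the window scored above the first in 54 of the 73 haploid cells with both scores (0.294 ± 0.461, SD) and in 50 of 58 diploid cells (0.317 ± 0.424). Here too the spread over cells exceeded the mean step, and it does not measure the uncertainty of that mean.

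**Figure D2:**
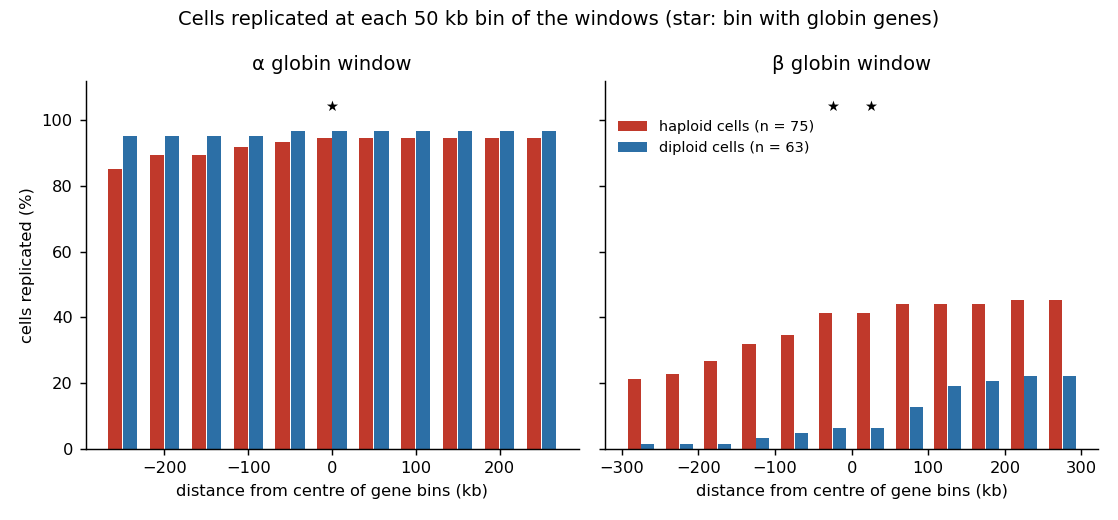
Percentage of cells replicated in each 50 kb bin of the alpha and beta windows against the distance from the centre of the bins that hold the genes (kb), for 75 haploid (red) and 63 diploid (blue) cells. In the alpha window every bin was replicated in 85.3% of cells or more, and in the beta window in 45.3% or fewer.

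The binarized states gave the same picture cell by cell. The alpha genes were replicated in 71 of 75 haploid cells (94.7%, exact 95% interval 86.9% to 98.5%) and in 61 of 63 diploid cells (96.8%, 89% to 99.6%). The beta genes were replicated in 31 of 75 haploid cells (41.3%, 30.1% to 53.3%) and in 4 of 63 diploid cells (6.35%, 1.76% to 15.5%). Intervals are Clopper-Pearson and cover the counting of cells only. The beta shares depended on the call: where a positive smoothed score was the criterion, they were 13.3% in haploid and 3.17% in diploid cells. The score is centered within each cell, so a late bin with the replicated state can score below 0. The haploid cell B3, at 84.8% progress, had the beta genes replicated with a score of -0.187. The sorting gates of the haploid line were extended, however, and its cells reached later stages.

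Progress of a cell is the percentage of autosomal bins replicated. The lowest, median and highest progress was 24.6%, 63.6% and 88.6% in the haploid cells (61.1% ± 16.9, SD) and 18.2%, 56.6% and 79.1% in the diploid cells (54.1% ± 9.56). Most of the earliest haploid cells were in plate row A, with a median of 30.6% over 11 cells. The haploid cell of well G8 stood apart from its row, at 24.6% against a row median of 83.9%. The most similar diploid cells, wells C1 and G3, had the same state in 92.4% of bins against a median of 79.6% over 1953 pairs, and were kept as separate cells.

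At the alpha genes the smoothed score had a lowest, median and highest value of -0.601, 0.451 and 1.49 in haploid cells (0.429 ± 0.400, SD, n = 75) and -0.783, 0.367 and 1.28 in diploid cells (0.357 ± 0.395, n = 63). At the beta genes it was -1.56, -0.560 and 0.222 in haploid cells (-0.520 ± 0.435) and -1.28, -0.832 and 0.0970 in diploid cells (-0.775 ± 0.291). The ranges of the clusters overlapped in each line when cells were pooled. Within cells they were more distinct. The alpha score exceeded the beta score in 72 of 75 haploid cells, by a median of 0.916 over all of them, and in 60 of 63 diploid cells, by a median of 1.18.

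The 6 cells with the opposite order of scores were 3 of each line. In the haploid cell D10, at 53% progress, the alpha score was -0.0236 and the beta score 0.186. In the haploid cell E2 (63.6%) they were -0.0741 and 0.217, and in the haploid cell F2 (65.2%) -0.213 and -0.125. In the diploid cells C3 (62%) and A11 (79.1%) the scores of the clusters were -0.200 and -0.0378, and 0.0244 and 0.0464. In all 5 of these cells the state of both clusters was replicated. The diploid cell A6 (42.3%) differed, with scores of -0.783 and -0.492 and neither cluster replicated.

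**Figure D3:**
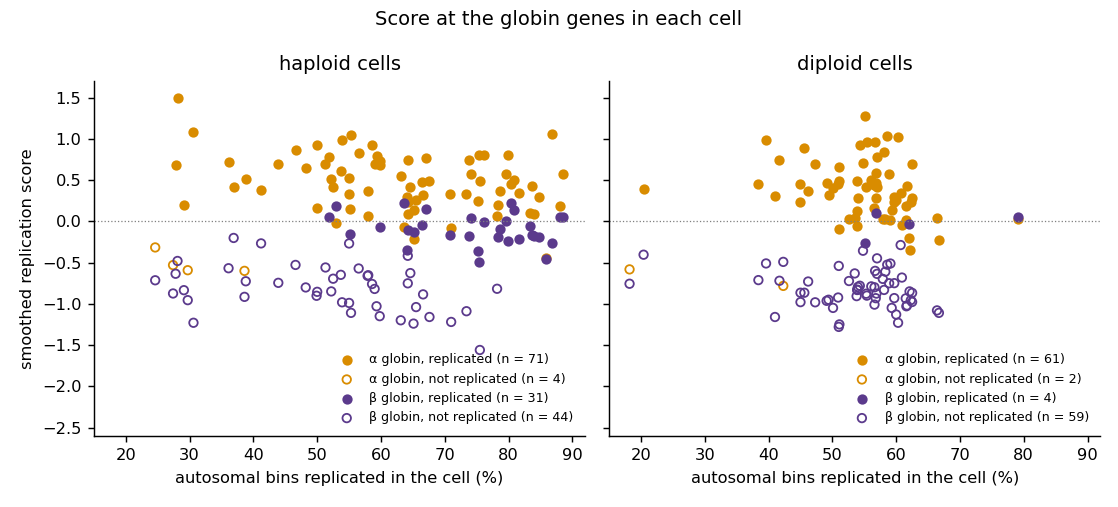
Smoothed score at the alpha genes (orange) and the beta genes (purple, mean of both gene bins) in each of 75 haploid and 63 diploid cells, against the percentage of autosomal bins replicated in the cell. Filled points are replicated by the binarized state and open points are not. Open alpha points were found in 4 haploid and 2 diploid cells, none above 42.3%, and filled beta points began at 51.8%.

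Both clusters were replicated in 31 haploid and 4 diploid cells, the alpha genes alone in 40 and 57, and neither in 4 and 2. The beta genes alone were replicated in 0 of 138 cells, which allows a share of up to 2.17% of cells such as those sampled. Unreplicated alpha genes were found only up to 42.3% progress and replicated beta genes only from 51.8%. Few cells were thus at a stage where the inverse order could appear, and the count does not measure how rare it is. No cell thus had the order of the clusters inverted by the binarized state.

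The alpha genes were unreplicated in 6 cells, none past 42.3% progress. Progress in these was 18.2% in the diploid cell A2, 24.6% in the haploid cell G8, 27.4% in A7, 29.7% in A2 and 38.6% in A4 of the haploid plate, and 42.3% in the diploid cell A6. The first haploid cell with the alpha genes replicated was at 27.8% and the first diploid cell at 20.4%. From 50% progress onward the alpha genes were replicated in every cell of either line.

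In the haploid cells, the first with the beta genes replicated was at 51.8% progress and the last without at 78.2%, and 42 cells lay between these limits. At the alpha genes the limits were 27.8% and 38.6%, with 8 cells. No haploid cell lay below 24.6%, so the switch of the alpha genes could not be followed there. The alpha span is therefore a lower limit, and the wider beta span does not show a slower switch. In the diploid cells the overlap ran from 20.4% to 42.3% progress at the alpha genes, with 6 cells. At the beta genes it ran from 55.1% to 66.7%, with 35 cells. Few diploid cells lay early or late in S phase, so the widths of these spans cannot be compared. The beta genes were replicated in 4 of 19 haploid cells at 50% to 60% progress and 6 of 14 at 60% to 70%. They were replicated in 10 of 14 at 70% to 80% and 11 of 11 at 80% to 90%. The 4 diploid cells with replicated beta genes were wells F11 at 55.1%, H6 at 56.9%, C3 at 62% and A11 at 79.1%. Only A11 lay beyond 70% progress in the diploid line, so the end of the switch could not be followed there.

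**Figure D4:**
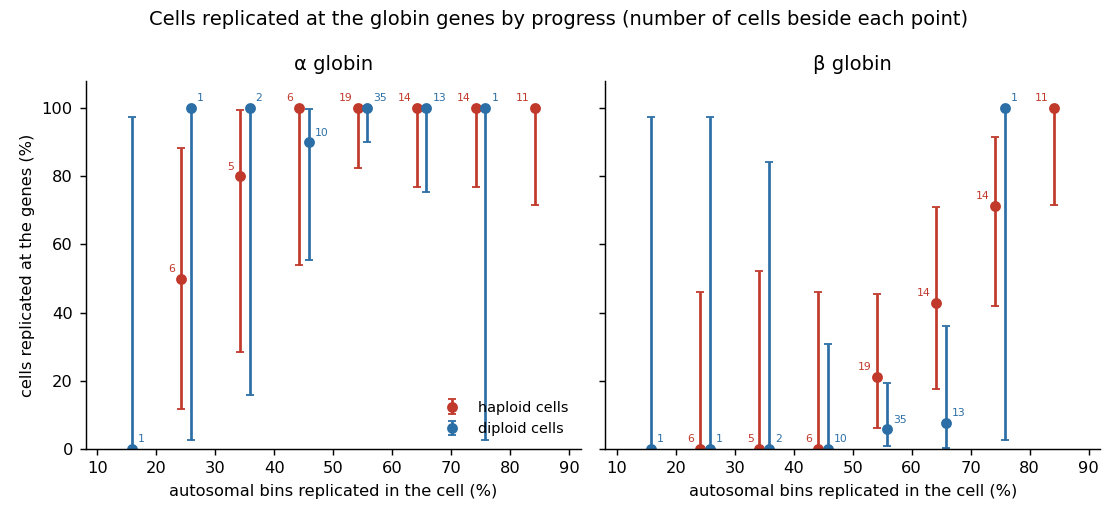
Percentage of cells with the globin genes replicated, by intervals of 10 percentage points of progress, for haploid (red) and diploid (blue) cells. Error bars are exact 95% intervals for the counting of cells, and the number beside each point is the number of cells. Alpha shares were at or near 100% from 40% progress in both lines, and haploid beta shares rose from 21.1% at 50% to 60% progress to 100% at 80% to 90%.

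The lines were compared at like progress, in the intervals with at least 5 cells of each (40% to 50%, 50% to 60% and 60% to 70%). At 50% to 60%, where both lines had a mean progress of 55.7%, the share of cells with replicated beta genes was 21.1% in the haploid line (6.05% to 45.6%, n = 19) and 5.71% in the diploid line (0.700% to 19.2%, n = 35). At 60% to 70% the shares were 42.9% (17.7% to 71.1%, n = 14) and 7.69% (0.195% to 36%, n = 13), with mean progress of 65.1% and 62.4%. The haploid share was the higher in both, and no test stands behind the difference, since each line is 1 sample. In cells at 40% to 60% 25 of 25 haploid and 44 of 45 diploid cells had the alpha genes replicated.

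The score difference, haploid minus diploid, was averaged over the same intervals. It was 0.162 at the alpha genes and 0.198 at the beta genes, at the 78.3 and 83.8 percentile of all bins, whose median was 0.0226 with an SD of 0.195 over bins. Both differences were below the SD of the score over cells within a line, which does not measure the uncertainty of a difference of means. Over all autosomal bins, 1.65% (744 of 45112) differed by at least 0.5 in either direction. Of the member bins, 0 of 10 around alpha and 0 of 12 around beta did. In percentage points of cells replicated, the difference was 1.64 at the alpha genes (53.3 percentile) and 17.9 at the beta genes (92.9 percentile). Bins scheduled within 0.25 h of the beta genes had a median of 1.28 with an SD of 12, and the beta genes were at the 92.3 percentile of these.

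The chromosomes around the clusters moved the same way. The median score difference was 0.260 over the 2315 bins of chromosome 11 and 0.132 over the 2460 bins of chromosome 7. The alpha genes were thus below their chromosome (20.5 percentile of its bins) and the beta genes somewhat above theirs (69.6 percentile). When each cell's scores were centered on the median of the chromosome, the differences became -0.160 at alpha and -0.0116 at beta. The direction of the score difference at the globin genes was therefore the same as that of the chromosome median, and it did not remain after centering. This holds for scores only. In percentage points of cells replicated, the difference at the beta genes was 17.9, against a median of 3.93 over chromosome 7 (87.9 percentile of its bins). At the alpha genes it was 1.64, against a median of 6.17 over chromosome 11. Centering of scores leaves the states as they are, so the difference in states was not tested by it. Diploid states were first called on reads of both homologs together, so the calls are not fully alike in the lines. The beta shares also depended on the call, with 41.3% of haploid cells by state and 13.3% by a score above 0.

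The difference between the lines changed along the windows. In the first bin of the alpha window 64 of 75 haploid cells (85.3%) and 60 of 63 diploid cells (95.2%) were replicated, a difference of -8.08 percentage points at like progress. From the gene bin to the right edge the difference was 1.64. In the beta window the share of haploid cells rose from 21.3% in the first bin to 41.3% at the genes and 45.3% in the last bin. The mean state of diploid cells rose from 2.38% to 7.14% and 22.2% over the same bins. Diploid shares here average the homologs of each cell.

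Changes of state inside the windows followed the same slope. In the beta window a cell with the genes replicated and the left edge not was found 15 times among haploid and 3 times among diploid cells, and the reverse 0 times in either line. The right edge was replicated before the genes in 4 haploid and 10 diploid cells, and the genes before the right edge in 1 and 0. In the alpha window the genes were ahead of the left edge in 8 haploid cells and 1 diploid cell and behind it in 1 haploid cell. No cell had a change of state between the alpha genes and the right edge, or between the bins of the beta genes.

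Variation among cells was near that of other bins at the alpha genes, and lower at the beta genes in diploid cells. After a straight line on progress within the line, the residual SD of the score was 0.403 in haploid and 0.399 in diploid cells at the alpha genes, against medians of 0.408 and 0.392 over all bins. At the beta genes it was 0.407 and 0.297, the latter at the 14.4 percentile of all bins. Bins scheduled within 0.25 h of the beta genes had medians of 0.448 and 0.349, which placed the beta genes at the 21.6 and 13.3 percentile. The residual SD of the beta genes was thus lower than that of most bins of like time in the joint schedule. That schedule put the beta genes at 7.60 h, while they were at 7.34 h in the haploid and 8.01 h in the diploid profile. Progress of the diploid cells was 54.1% ± 9.56 (SD), with 1 cell at 70% to 80%, so few were near the time of the beta genes. Whether the low residual SD comes from the stages sampled was not tested.

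States that went against the schedule were counted with the cell left out of its own schedule. At the alpha genes 4.35% of 138 cells did so, with 1 cell replicated ahead of its schedule and 5 cells behind. The median of 2255 bins scheduled within 0.25 h of the alpha genes was 6.52%. At the beta genes the value was 13.8%, and bins of like time had a median of 14.5%. It came from 17.5 cells ahead of schedule and 1.5 behind, as means of the gene bins. Most cells lay after the scheduled time of the alpha genes, where a cell can only be behind. Most also lay before that of the beta genes, where a cell can only be ahead. The counts ahead and behind therefore cannot be compared. Among cells within 1 h of the scheduled time, 4 of 9 at the alpha genes and 27.3% at the beta genes went against it, beside 36.8% over all bins. So few cells were near the time of the alpha genes that this share says little.

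In the diploid cells the states of the homologs are given separately. The homologs of the alpha window had the same state in all 63 cells in every bin. In the beta window they differed in 1 cell, D10, at 52.6% progress, where the Castaneus homolog alone was replicated over the 8 bins from 103550001 to the one that begins at 103900001. That cell counts as unreplicated in the shares of the beta genes. Over all autosomal bins the mean was 0.548 asynchronous cells, with 0 in 59.6% of bins and 1 in 28.9%. Segments were given different states only where enough homolog-specific reads were present, so these counts are lower limits.

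The surrounding domains were bounded where the schedule crossed 5 h. The alpha genes lay in an early domain of 5.0 Mb, from 29150001 to 34150000, with its borders 3.13 Mb to the left and 1.85 Mb to the right of the cluster. In the diploid profile alone the domain was 2.70 Mb long, since the left border was at 31350001, 0.926 Mb from the cluster. The DNA further left was near 5 h in diploid cells, so a small shift moved that border a long way. The beta genes lay in a late domain of 4.30 Mb, from 102750001 to 107050000. Its left border was 1.06 Mb and its right border 3.20 Mb from the cluster, and it was 3.7 Mb long in the haploid and 4.40 Mb in the diploid profile. The right border of the haploid profile, 2.65 Mb from the cluster, rested on a single bin at 4.98 h. The next bin was again late, at 5.36 h. No bin was used from 1.94 Mb to 2.64 Mb right of the cluster centre. The right border and the lengths in the lines are therefore uncertain.

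In single cells, the run of equal state that held the replicated alpha genes had a median length of 7.35 Mb in haploid and 5.10 Mb in diploid cells. The unreplicated run around the beta genes had medians of 2.58 Mb in 44 haploid and 3.7 Mb in 59 diploid cells. In the 31 haploid cells with the beta genes replicated the run had a median of 11.2 Mb and reached 56.8 Mb. The 4 diploid cells with the beta genes replicated had runs of 0.850 Mb to 38.7 Mb, with a median of 0.975 Mb. Run lengths depend on how much of the genome a cell has replicated, and they were not matched for progress. Median progress was 63.6% in haploid and 56.6% in diploid cells, so these lengths do not compare the domains of the lines. Runs as short as the gene clusters could not be seen, since the states were called on smoothed, segmented bins of 50 kb.

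The windows also differ in what they hold. The alpha window had 15 protein-coding genes, of which 5 are globin genes and 0 are olfactory receptor genes. On its left lie Nprl3, whose introns hold the major alpha globin enhancers, then Mpg, a glycosylase of base excision repair, and Rhbdf1, an inactive rhomboid protein. Nprl3 starts in the bin of the alpha genes, and Mpg and Rhbdf1 start in the bin before it, at 2.74 h. On the right lie Sh3pxd2b, an adaptor of podosomes whose start is in the bin without scores, Ubtd2 at 1.31 h and Efcab9 at 1.10 h. The beta window had 41 protein-coding genes, of which 5 are globin and 33 are olfactory receptor (Olfr) genes, which code for odorant sensors of the nose. Next to the cluster are Olfr67, Olfr68 and Olfr69 on the left, all at 8.04 h, and Olfr66 and Olfr64 (7.47 h) and Olfr65 (7.22 h) on the right.

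The GC content was 46.5% over the alpha window and 38.4% over the beta window, at the 85.2 and 21.9 percentile of autosomal bins, whose median was 41.4%. The beta window held 3.42 gene starts per bin, 2.75 of them Olfr genes, and the alpha window 1.36, beside a mean of 0.429 over all bins. The late window was thus the more crowded with genes. Over the 531 used bins with the start of an Olfr gene the median scheduled time was 6.45 h (quartiles 4.92 h and 7.73 h), and 26.6% of these bins were later than the beta genes.

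Other globin genes were measured where they start in a used bin. Hbq1b, a theta-like gene inside the alpha cluster, shares the bin of the alpha genes, and Hbq1a starts in the bin without scores. The beta-like genes Hbb-bh1 and Hbb-bh2 share the bin of Hbb-bt. The globin genes outside both clusters were all early, with 0.944 h for Mb (the oxygen-binding globin of muscle), 1.35 h for Cygb (cytoglobin) and 1.30 h for Ngb (neuroglobin). Mb was replicated in all 75 haploid and all 63 diploid cells. Among the globin genes measured, those of the beta cluster were thus the late ones.

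Genes that act on globin in red cell precursors were early, as are most genes (80.2% of 19345 protein-coding genes were scheduled before 5 h). Of 13 listed transcription factors and cofactors 12 were used (Gata1 is on the X chromosome), and 12 of 12 were scheduled before 5 h, with a median of 1.66 h. Klf1, which activates the adult beta globin gene, was at 1.57 h and replicated in 74 haploid and 59 diploid cells. Its bin was thus replicated in most of the cells in which the beta genes were not. Ldb1, which joins enhancers to globin genes, was at 1.75 h, Nfe2 at 1.21 h, Lmo2 at 0.308 h and Zfpm1, a cofactor of Gata1, at 0.156 h. The latest were Sox6 at 4.24 h and Bcl11a at 4.20 h, which act together in the silencing of embryonic and fetal beta-like genes. Runx1 (4.03 h), Tal1 (3.51 h), Myb (3.33 h), Zbtb7a (1.01 h) and Gfi1b (0.743 h) made up the rest.

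Of 15 listed genes of the red cell membrane, haem and iron, 13 were used, with 10 early and 3 late. Alas2 is on the X chromosome and Ahsp was not matched to the annotation. The late genes were Rhag, the Rh-associated glycoprotein, at 7.02 h, Hpx (haemopexin) at 5.87 h and Car2 (carbonic anhydrase) at 5.43 h. Rhag came nearest to the beta genes, with 34 of 75 haploid and 9 of 63 diploid cells replicated. Hpx lies on the same chromosome inside the late domain of the beta genes, and was replicated in 49 haploid and 20 diploid cells. Early members included Epb42 at 0.396 h, Sptb at 0.865 h, Fech, the last enzyme of haem synthesis, at 1.17 h, Epor (the erythropoietin receptor) at 1.74 h, Tfrc (the transferrin receptor) at 1.80 h and Slc4a1 (band 3) at 2.87 h.

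Both erythroid lists together had 22 of 25 genes early (88%), near the share over all protein-coding genes. None of the 25 differed between the lines by 0.5 or more, beside 1.34% of all protein-coding genes. Car2 alone among the 25 lay on different sides of 5 h in the lines, as did 6.03% of all protein-coding genes, at 6.04 h in the haploid and 4.82 h in the diploid profile. A list of 7 genes taken as neighbours of the alpha cluster had 6 used and 6 early. One of them, Polr3k, is on chromosome 2 in the mouse, at 3.77 h, and is no neighbour there.

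**Figure D5:**
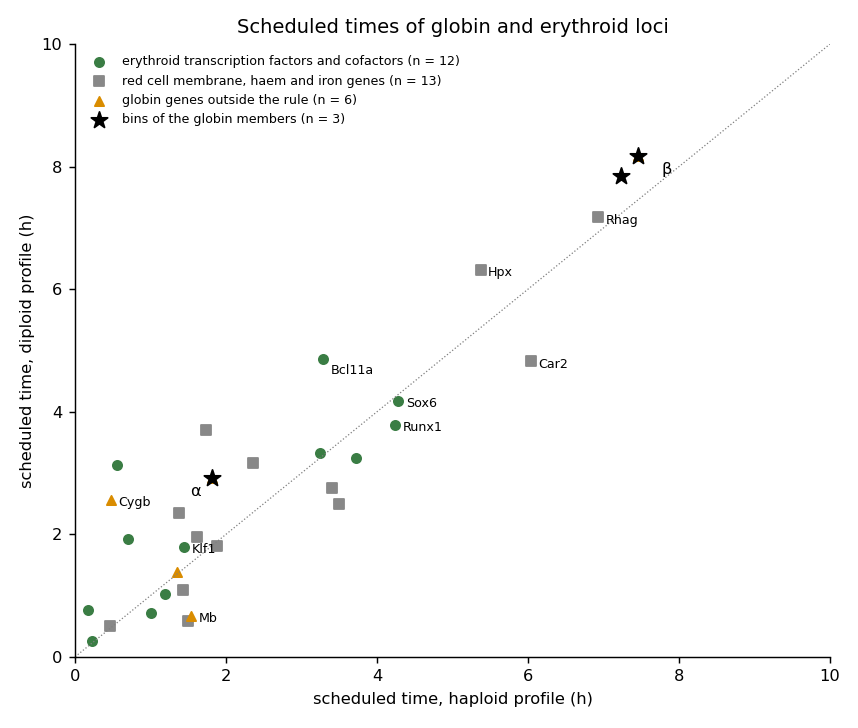
Scheduled time in the diploid profile against that in the haploid profile (both in hours) for the bins of the globin members (stars), other globin genes (triangles), erythroid factors (circles) and red cell genes (squares); the dotted line marks equal times. The beta bins lie later than all listed genes outside their cluster in both profiles, and the alpha bin lies among the early ones.

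Genes on other chromosomes whose scores followed those of the clusters most closely across cells were named by Pearson correlation over 138 cells. For alpha these were Herc1 (r = 0.393), 1600014C10Rik (0.374), Usp3 (0.373), Fbxl22 (0.367) and Virma (0.366), beside a median of 0.0661 over all genes. Herc1, Usp3 and Fbxl22 are neighbours on chromosome 9. For beta they were Cst13 and Cst9, which share a bin (0.453), Vma21-ps (0.419) and 8030411F24Rik and Cst11, which share another (0.417), beside a median of -0.112. The correlation between the clusters was 0.0249. All points share the same cells, and the score moves with progress, so these values are a description.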

How the data were processed

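Single nuclei were sorted by DNA content, amplified and sequenced. As the methods state, reads were aligned to mm10 by the authors with Bowtie 2. They removed duplicates, counted reads in 50 kb windows, divided by G1 and G2 control cells, centered and scaled each cell and applied a median filter. The deposited smoothed values are a score without a fixed unit. The other deposited table holds binarized states (0 or 1, unit other), for diploid cells by homolog, which the authors derived from segmented profiles. Neither table gives reads, so depth is unknown. Aneuploid chromosomes were rescaled by the authors, which can move scores of whole chromosomes.

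Columns were matched to labelled cells by line and well. Labels named 86 haploid, 96 diploid and 6 haploid G1 cells, and 75, 63 and 0 of these were matched. A further 24 columns matched no labelled cell and were not used. Homologs were averaged, and a cluster was replicated in a cell when the mean state of its gene bins was above 0.5. Line differences were averaged over progress intervals of 10 points with weights n1n2/(n1+n2). Gene positions came from GENCODE and sequences from RefSeq, both on GRCm38, and all 20 chromosomes held their last bin. Scripts ran in Python 3.11.15 with numpy 2.4.6, pandas 2.3.3, scipy 1.17.1 and Biopython 1.88, and the line difference and the ranks were tested on simulated data. No hypothesis test was made. The text names the 6 members, the nearest 3 genes on each side, the listed genes and the 5 genes of most similar pattern per cluster. Members and lists were chosen with earlier results of these data known. Some genes of the red cell list are not reported here and were left out of its counts.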

Additional observations from a re-analysis of the deposited data

How the results depend on the processing

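The 14 main values (scheduled times, line differences, shares, residual SDs and the count of cells with the beta genes alone replicated) were recomputed under other choices. There were 132 alternative values, 104 planned and 28 added after seeing the data. Of these, 122 moved by less than the spread over cells, the interval of the share or 1.5 times. Some of them could not move. Shares come from states, which centering of scores leaves as they are, and leaving out diploid cells does not touch haploid shares. For scheduled times and line differences the limit was the SD over single cells, which is wide (1.77 h and 0.398 at the alpha genes). Centering scores on each chromosome's median turned the line difference to -0.160 at alpha and -0.0116 at beta. With binarized states it was 1.64 percentage points at alpha and 17.9 at beta. In cells at 40% to 60% progress the haploid share replicated was 100% at alpha and 16% at beta, since early and late cells are left out. Without plate row A the diploid alpha share was 100%. Calling a cluster replicated by a score above 0 gave 87.3% of diploid cells at alpha, 13.3% of haploid and 3.17% of diploid cells at beta, and 2 cells with beta ahead of alpha, for which the cause was not tested. The scheduled time of the alpha genes ran from 1.42 h (schedule from the mean binarized state) to 3.88 h (chromosome centering) and that of the beta genes from 7.23 h to 8.30 h, and alpha minus beta from -5.81 h to -4.42 h. Leaving out 1 cell of each of 3 similar diploid pairs, or the haploid cell G8 with the diploid cell A6 (both chosen after seeing the data), moved no value past these limits. Smoothing wider than the windows limits the resolution within them, and the few diploid cells late in S phase limit what can be said of the beta genes there. No paired analysis was possible because each line is 1 sample and no result comes from a test.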
